A study of Mus musculus with 4 samples.

Results

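The Reg genes encode small secreted C-type lectins, proteins that bind carbohydrate, and Retnlb encodes resistin-like beta, a small secreted protein of goblet cells. Their 8 members, Reg1, Reg2, Reg3a, Reg3b, Reg3d, Reg3g, Reg4 and Retnlb, were taken by the gene name printed for each spot in the scanner files. Each was read by 1 probe, so 8 of the 39429 probes other than controls, and 8 of 30119 named genes or transcripts, are described here on every array. The 8 were chosen by their log2 differences between these same arrays in earlier results, so the values below describe them and test nothing. Samples of wild-type C57/BL6 mice were read as RNA on 1-colour Agilent arrays, 4 in all and 1 for each group. The groups were an o-organoid sample, a y-organoid sample, crypt and whole intestine. Both organoid samples are labelled as crypt-villus organoids, epithelial structures that grow from crypts in culture, and crypts are the pockets of the gut lining in which its stem cells sit. What the letters o and y stand for, the age and number of the animals, the part of the gut and the days in culture are not given in the sources used here.

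Reg3g and Reg3b are antibacterial lectins of the small intestine: Paneth cells and enterocytes secrete them into the mucus, where Reg3g binds the peptidoglycan of Gram-positive bacteria. Both are induced by bacterial signals through the adaptor Myd88 and by the cytokine IL-22 through the transcription factor Stat3. Reg1 and Reg2 are known as secretory products of the acinar cells of the pancreas, and Reg1 is also made in the gut epithelium. Reg4 is a marker of secretory cells of the gut, and Retnlb is induced in goblet cells by the type 2 cytokines IL-4 and IL-13. Of the members, 6 lie side by side on chromosome 6, from 78370885 to 78468874 in build GRCm38.p6, a stretch of 98.0 kb that holds no other protein-coding gene in the RefSeq table. Reg4 lies on chromosome 3 and Retnlb on chromosome 16.

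Intensities are the scanner software's processed spot values on a linear scale, and signals are log2 intensities minus the array's 75th percentile (also log2). Each difference is a log2 signal of the array named before minus that of the array named after. A probe that the scanner software did not flag as well above background has only a bound, written as at least N-fold. For the bound, the dim side was placed at the array's faintest detected probe, or at its own signal where that was brighter. Repeated spots gave a difference a technical SD of 0.065 to 0.097 for members with signals above -2 on both arrays and 0.32 to 0.54 otherwise. That SD leaves out labelling and hybridisation, so no difference carries a p-value or a standard error between groups, and the single array per group limits the precision. The o-organoid array was labelled from 40 ng of RNA and the others from 20 ng. Between 51.2% and 57.5% of probes were well above background on an array. Xist, which females transcribe from the inactive X chromosome, was above background on intestine only, while Ddx3y and Eif2s3y of chromosome Y were above it on the other arrays, so that sex and tissue cannot be told apart in comparisons with intestine. In bulk RNA, fewer cells of a type and less RNA per cell cannot be told apart.

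Reg3b had the widest differences between organoids and crypt among the members. Its intensity was 259.5 on o-organoid, 47.1 on y-organoid, 48552 on crypt and 89957 on intestine. Both organoid arrays lay far below both fresh tissues, yet Reg3b was still well above background on each. The signal was -1.31 on o-organoid and -2.58 on y-organoid, against 6.68 on crypt. The differences from crypt were -7.99 for o-organoid (255-fold lower) and -9.27 for y-organoid (616-fold lower). The y-organoid spot was dim, and its difference had a technical SD of 0.38. With normexp background correction the differences were -7.56 and -8.07.

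Reg3g, the lectin best known for keeping Gram-positive bacteria away from the epithelium, was less far apart. Its intensity was 1974 on o-organoid, 677 on y-organoid, 27323 on crypt and 35328 on intestine. The order was again intestine, crypt, o-organoid and y-organoid, and the organoid signals, 1.62 and 1.26, stayed above the 75th percentile of their arrays. The differences from crypt were -4.24 for o-organoid (18.9-fold lower) and -4.59 for y-organoid (24.1-fold lower).

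The stretches of DNA just before the starts of Reg3b and Reg3g are shown because these genes, which lie at opposite ends of the cluster, were both lower on both organoid arrays, by unequal amounts. The windows hold the 250 bases before the RefSeq start in build GRCm38.p6, Reg3b at chr6:78370635-78370884 on the plus strand and Reg3g at chr6:78468875-78469124 on the minus strand, and capitals mark the motifs TATAAA and TTCNNNGAA.
Reg3b: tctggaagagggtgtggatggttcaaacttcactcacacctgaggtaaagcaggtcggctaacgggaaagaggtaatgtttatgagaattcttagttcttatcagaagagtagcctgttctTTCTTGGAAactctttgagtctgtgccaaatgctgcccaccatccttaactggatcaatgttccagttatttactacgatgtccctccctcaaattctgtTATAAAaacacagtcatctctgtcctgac
Reg3g: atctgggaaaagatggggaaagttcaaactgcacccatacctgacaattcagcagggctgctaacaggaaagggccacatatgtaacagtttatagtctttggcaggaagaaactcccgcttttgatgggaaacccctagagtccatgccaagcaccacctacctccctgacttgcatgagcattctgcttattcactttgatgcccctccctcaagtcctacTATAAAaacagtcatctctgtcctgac
The Reg3b and Reg3g windows were identical at 68.4% of aligned positions, gaps counted, whereas the other pairs among 7 members with a RefSeq window lay between 44.9% and 56.9%. Their last 20 bases, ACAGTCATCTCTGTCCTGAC, were the same and stood in 2 of 32851 windows in the table. TATAAA, the core of the TATA box where the transcription machinery assembles, was searched on the sense strand and stood at 29 to 24 bases before the start in Reg3b and at 27 to 22 in Reg3g. It also stood in the windows of Reg1 and Reg2, so in 4 of 7 members, and in 7.59% of all windows. TTCNNNGAA, the core letters of Stat sites, was searched on both strands and stood in Reg3b (129 to 121 bases before the start) and Reg3d (238 to 230), and in 7.02% of all windows. TGANTCA, the core letters of AP-1 sites, was also searched on both strands and stood in Reg1 alone among the members (117 to 111 bases before the start) and in 6.75% of all windows. The form with 4 bases between TTC and GAA, known for Stat6, was searched on both strands too and also stood in Reg1 alone (244 to 235 bases before the start) and in 5.85% of all windows. A match describes letters and is not a site.

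Reg3a, a further lectin of the Reg3 group, followed the same order of tissues except at the top. Its intensity was 1153 on o-organoid, 171 on y-organoid, 26887 on crypt and 17194 on intestine. The organoid arrays were again far below, and the crypt array was here the highest. The differences from crypt were -4.99 for o-organoid (31.8-fold lower) and -6.55 for y-organoid (93.8-fold lower).

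Reg3d, which has been described as a relative of a hamster protein linked to islet growth, differed from the other Reg3 genes in where its step lay. Its intensity was 85.9 on o-organoid, 34.1 on y-organoid, 273 on crypt and 26510 on intestine. The signal was thus high on intestine alone (6.10), and the other 3 arrays lay between -3.05 and -0.79. The differences from crypt were -2.12 for o-organoid (4.34-fold lower) and -2.26 for y-organoid (4.78-fold lower), with technical SDs of 0.32 and 0.39. Both lay within 4-fold with normexp background correction (-1.59 and -1.21), and the o-organoid difference did so under 5 of 7 alternatives. The remaining alternatives, no filter on dim probes and the median of a gene's probes, could not change this value. The organoid signals, -2.91 and -3.05, differed by less than the technical SD of 0.49.

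**Figure D1:**
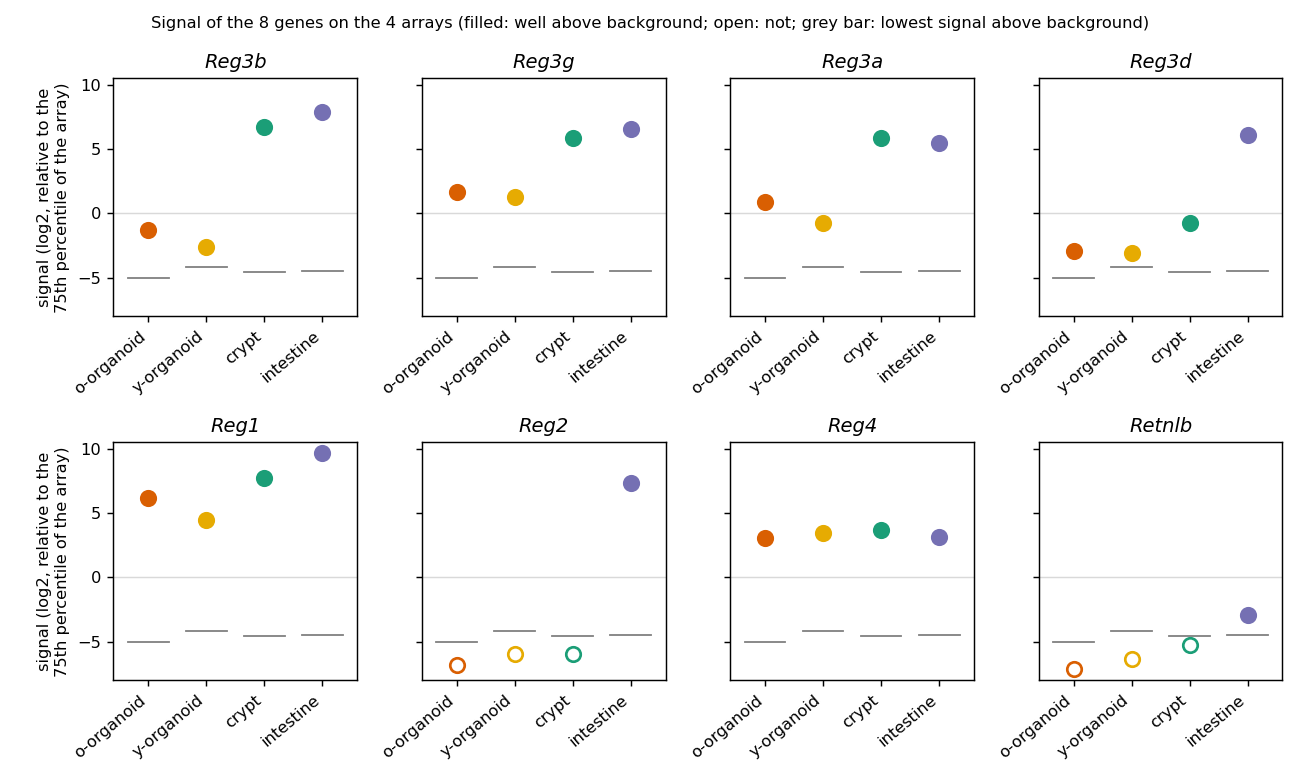
Signal (log2, relative to the 75th percentile of the array) of each member on o-organoid, y-organoid, crypt and intestine arrays, 1 point per array; filled points are well above background, open points are not, and grey bars mark the faintest probe detected on each array. Reg3a, Reg3b and Reg3g lie lower on both organoid arrays than on crypt and intestine, Reg2 and Reg3d are high on intestine alone, and Reg4 lies between 3.05 and 3.69 on every array.

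Reg1 signals in culture, 6.19 on o-organoid and 4.45 on y-organoid, lay above the 75th percentile of their arrays. Its intensity was 46969 on o-organoid, 6164 on y-organoid, 100502 on crypt and 307927 on intestine, and none of these spots was saturated. The 4 values were well apart, in the order intestine, crypt, o-organoid and y-organoid. The differences from crypt were -1.54 for o-organoid (2.92-fold lower) and -3.28 for y-organoid (9.73-fold lower). Crypt minus intestine was -1.91 (3.75-fold lower).

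Reg2, the nearest relative of Reg1 by name and its neighbour in the cluster, was measured on a single array. Its intensity was 5.67 on o-organoid, 4.57 on y-organoid, 7.74 on crypt and 61354 on intestine. Only the intestine value was well above background, and crypt was at least 3679-fold lower than intestine (a bound of -11.84). The size of this bound depends on the processing: it was -9.43 with normexp background correction and -10.03 without background correction. No difference between organoids and crypt can be given. The Reg1 and Reg2 windows are shown because these neighbours had such different values outside the intestine sample. They lie on the plus strand of build GRCm38.p6, Reg1 at chr6:78425733-78425982 and Reg2 at chr6:78404905-78405154, with TATAAA in capitals at 30 to 25 bases before the start in both.
Reg1: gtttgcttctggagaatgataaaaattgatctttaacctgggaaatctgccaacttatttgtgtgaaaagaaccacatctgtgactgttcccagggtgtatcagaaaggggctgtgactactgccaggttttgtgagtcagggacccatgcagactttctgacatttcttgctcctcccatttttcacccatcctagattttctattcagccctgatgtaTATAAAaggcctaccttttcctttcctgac
Reg2: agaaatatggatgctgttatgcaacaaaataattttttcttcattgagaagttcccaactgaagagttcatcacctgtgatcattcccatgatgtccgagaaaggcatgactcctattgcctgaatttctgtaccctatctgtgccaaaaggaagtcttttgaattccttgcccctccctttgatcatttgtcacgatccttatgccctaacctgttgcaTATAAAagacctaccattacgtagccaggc
These windows were identical at 56.9% of aligned positions.

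Pancreatic transcripts moved with Reg2 and Reg3d between crypt and intestine. All 21 genes of a pancreatic acinar list were lower by 4-fold or more on crypt (median -12.61, from -14.42 to -2.15), and the list's summed signal was 5.86 on crypt and 13.65 on intestine. On crypt 13 of the 21 were above background, with Clps, the gene of the lipase cofactor colipase, the brightest at 5.67, and 8 were not, among them Prss2, Cpb1 and Pnlip, which encode trypsin, carboxypeptidase and lipase, and the acinar transcription factor Ptf1a. On each organoid array 11 of the 21 were above background, with Clps at 5.60 on o-organoid and 3.42 on y-organoid, and the summed signal was 5.82 on o-organoid and 4.04 on y-organoid. Islet genes were lower on crypt too: 4 of 4 with a value were lower by 4-fold or more (median -5.74), and Ins1 and Ppy were not above background on crypt. Genes of connective tissue and muscle (median -7.02) and of immune cells (median -2.68) were lower on crypt as well. Of all probes 6.73% were lower by 4-fold or more on crypt than on intestine. The part of pancreatic transcripts, or of these other cells, in the values of Reg1, Reg2, Reg3d or any other member was not tested on any array.

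Reg4 stayed within 4-fold over the 4 arrays. Its intensity was 5344 on o-organoid, 2999 on y-organoid, 6089 on crypt and 3435 on intestine. After scaling, the signals were 3.05, 3.41, 3.69 and 3.15 in the same order, so the widest gap was that between o-organoid and crypt (-0.64, 1.55-fold lower). Y-organoid minus crypt was -0.28 and crypt minus intestine 0.54. With the deposited scaling they were -0.79 and 1.28, and the crypt to intestine gap was then the widest of the 4 comparisons. The probe is shown because its coordinates, chr3:98037005-98040251 in build mm9, span 3247 bases for a probe of 60, so it lies across a splice junction.
Reg4 probe: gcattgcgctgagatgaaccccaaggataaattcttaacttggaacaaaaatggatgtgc
Of its 3 forward frames 1 is free of stop codons. Enteroendocrine genes, beside which Reg4 is often found, spread more widely: 2 of 15 were lower by 4-fold or more and 0 higher on y-organoid than on crypt (median 0.26), and 4 of 14 lower and 1 higher on o-organoid (median -1.43). Over all probes 3.92% were lower and 4.95% higher on y-organoid, and 3.93% and 1.68% on o-organoid.

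Retnlb was at the edge of detection. Its intensity was 4.53 on o-organoid, 3.40 on y-organoid, 12.6 on crypt and 50.8 on intestine. The intestine value alone was well above background, and crypt was at least 3.05-fold lower, a bound of -1.61 that does not reach 4-fold. Its size depends on the processing. It was -0.77 with normexp background correction, -0.86 with the deposited scaling, -0.90 without background correction and -0.91 with quantile normalization. The other resistin genes were also measured best on intestine. Retn, Retnla and Retnlg, which encode resistin and its relatives of fat and of myeloid cells, had signals of 0.80, -0.54 and -0.03 there, and the second Retn probe had 0.69. On the organoid arrays none of the 3 was above background, and on crypt Retnlg alone was (-4.30). Of the goblet cell list, 15 of 15 genes were above background on the o-organoid, crypt and intestine arrays and 14 of 15 on y-organoid, where Sytl2 was dim. Against crypt, 9 of 15 were lower by 4-fold or more and 0 higher on y-organoid (median -2.21, from -7.24 to 0.72), and 3 of 15 were lower and 0 higher on o-organoid (median -0.69, from -4.94 to 0.26). The lowest value of both was that of Zg16, which encodes a lectin of goblet cell granules. Among all probes 3.92% were lower by 4-fold or more on y-organoid than on crypt, and 3.93% on o-organoid. The list's summed signal was 8.83 on o-organoid, 8.71 on y-organoid, 10.39 on crypt and 10.88 on intestine.

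Counted at 4-fold, the members with a value were either lower in organoids than in crypt or within 4-fold of it. On y-organoid 5 of the 6 members with a value (Reg1, Reg3a, Reg3b, Reg3d and Reg3g) were lower by 4-fold or more than on crypt (3.92% of 22165 probes were), and 0 were higher (4.95% of probes). Their median difference was -3.94, beside 0.19 over all probes. On o-organoid 4 of 6 (the Reg3 genes) were lower by 4-fold or more than on crypt (3.93% of 21718 probes were), and 0 were higher (1.68% of probes). Without Reg3d, which came within 4-fold under each of the 5 alternatives that could change its value, the count was 3. The median was -3.18, beside 0.03 over all probes. The 2 comparisons share the crypt array. Scaling moves the split of calls over all probes between y-organoid and crypt: 1098 were higher and 869 lower here, 528 and 1549 with the deposited scaling, 837 and 991 with quantile normalization, and 1460 and 730 with the percentile taken over probes above background on all arrays.

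**Figure D2:**
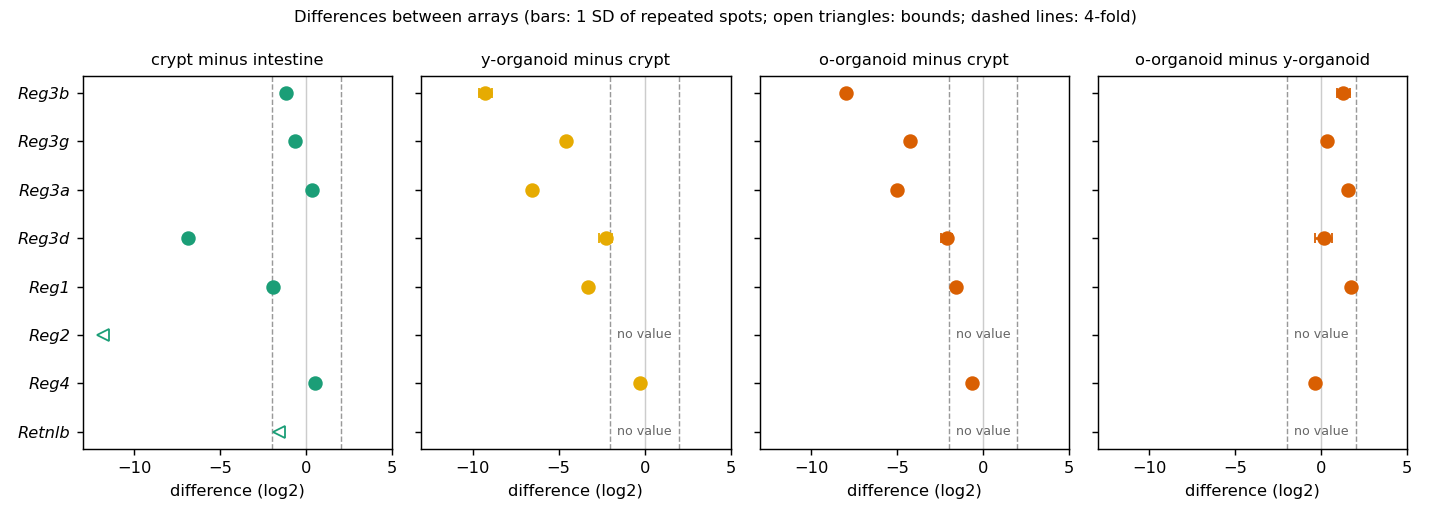
Difference in log2 signal for each member in the 4 comparisons; bars are 1 SD of repeated spots, open triangles are bounds and dashed lines mark 4-fold. Reg3a, Reg3b and Reg3g lie beyond -4 in both comparisons of organoids with crypt and within 4-fold between crypt and intestine, while Reg4 stays within 4-fold throughout.

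Between crypt and intestine 2 of 8 members, Reg2 and Reg3d, were lower by 4-fold or more on crypt (6.73% of 23406 probes were), and 0 were higher (0.325% of probes). Reg3d differed by -6.89 (119-fold lower). The other Reg3 genes were closer: Reg3a differed by 0.36, Reg3g by -0.66 and Reg3b by -1.18. The sign for Reg3g turned with the deposited scaling (0.09). Over the members the median was -1.39, beside 0.06 over all probes. The split over all probes was 76 higher and 1575 lower, against 292 and 1263 with quantile normalization and 814 and 1068 under the deposited scaling.

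O-organoid was set against y-organoid. None of the 6 members with a value passed 4-fold, beside 0.914% of 21761 probes higher and 3.12% lower on o-organoid. Signals of 5 of the 6 were higher on o-organoid, with Reg1 at 1.74 (3.34-fold), Reg3a at 1.56 (2.95-fold) and Reg3b at 1.27 (2.41-fold). The Reg3b difference, with a technical SD of 0.38, was 0.51 with normexp and 1.91 with the deposited scaling. Reg3g differed by 0.35, Reg3d by 0.14, which is within its technical SD, and Reg4 by -0.36. The member median was 0.81, beside -0.19 over all probes. Reg1 (2.38) and Reg3a passed 4-fold with the deposited scaling. The split over all probes was 199 higher and 678 lower, against 823 and 204 with that scaling and 282 and 406 with quantile normalization.

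Markers of the epithelial cells that make these lectins were set beside them. Enterocyte genes were lower on both organoid arrays: 15 of 16 were lower by 4-fold or more than crypt on y-organoid (median -3.75) and 12 of 16 on o-organoid (median -2.89). The largest of these differences were those of the lactase gene Lct, -8.85 for y-organoid and -7.62 for o-organoid. The Paneth list had 7 of 12 genes lower by 4-fold or more on y-organoid (median -2.10) and 1 of 12, the pentraxin gene Mptx1, on o-organoid (median -0.71). Beside both lists, 3.92% of all probes were lower on y-organoid and 3.93% on o-organoid. Lysozyme, Lyz1, an enzyme of Paneth granules, differed from crypt by -1.04 for o-organoid and -2.11 for y-organoid. All 12 Paneth genes were above background on all 4 arrays, and their summed signal was 10.09 on o-organoid, 9.03 on y-organoid, 10.76 on crypt and 10.58 on intestine. The summed enterocyte signal was 8.24, 6.95, 10.90 and 11.11 in the same order. The part of either cell type in the lectin differences was not tested.

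Between crypt and intestine these lists were close, as the Reg3a, Reg3b and Reg3g values were. All 16 enterocyte genes (median -0.23) and all 12 Paneth genes (median 0.64) lay within 4-fold, so the crypt sample carried enterocyte transcripts at about the intestine level. Transcripts of connective tissue and muscle were dim in the crypt sample: 12 of 12 such genes were lower by 4-fold or more on crypt (median -7.02). On the o-organoid, y-organoid and crypt arrays 11 of 12 were not above background. Immune cell genes were lower by 4-fold or more on crypt in 9 of 14 cases (median -2.68), and 6.73% of all probes were.

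**Figure D3:**
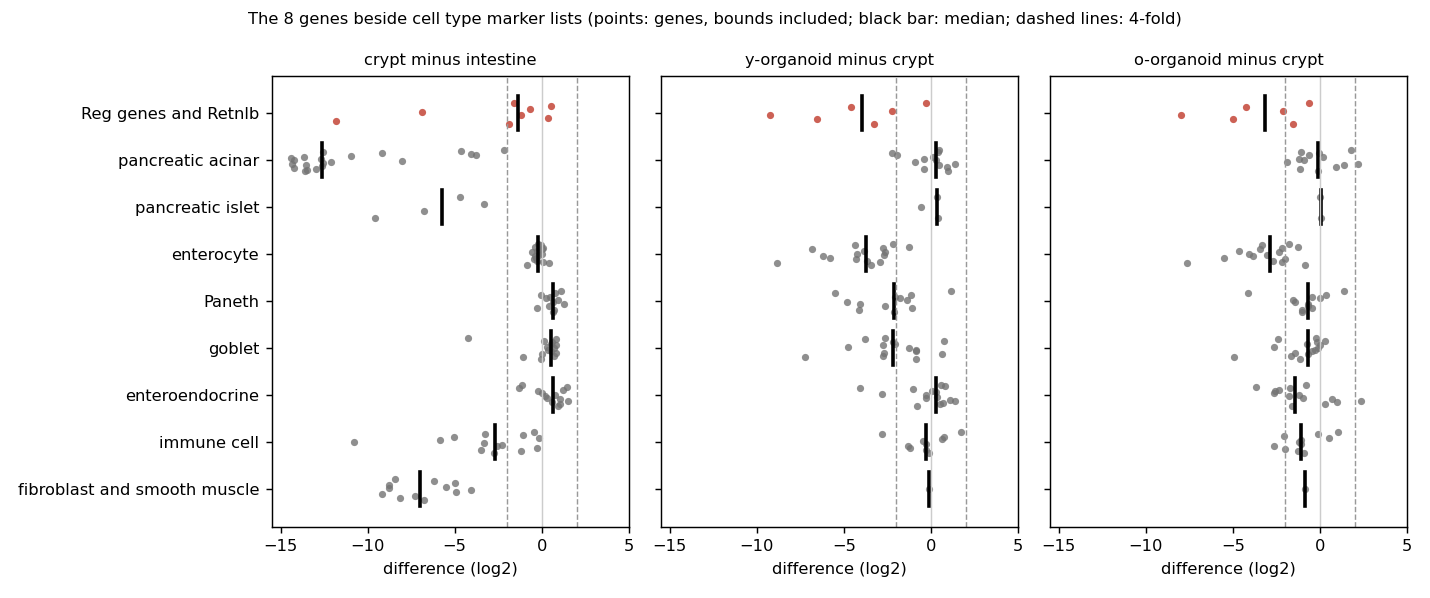
Log2 differences of the members (red) and of the genes of 8 cell type marker lists (grey), bounds included, for crypt minus intestine, y-organoid minus crypt and o-organoid minus crypt; black bars are medians and dashed lines mark 4-fold. The acinar list has a median of -12.61 between crypt and intestine, and the enterocyte list medians of -3.75 and -2.89 between organoids and crypt.

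Genes of a list for the IL-22, IL-6 and Stat3 pathway, which induces Reg3b and Reg3g in mouse gut, mostly lay within 4-fold, as did most probes. Of 15 with a value, 2 were lower by 4-fold or more and 1 higher on y-organoid than on crypt (median -0.64), and 1 was lower and 0 higher on o-organoid (median -0.68). Over all probes 3.92% were lower and 4.95% higher on y-organoid, and 3.93% and 1.68% on o-organoid. The lower gene on o-organoid was Il18, and those on y-organoid were Il18 and Il22ra1. Il22ra1, the receptor chain particular to IL-22 and its relatives, had signals of -1.42 on o-organoid, -3.53 on y-organoid, -0.09 on crypt and 0.08 on intestine. The y-organoid array thus stood out as low, with a difference from crypt of -3.44. Il10rb, the partner chain, differed from crypt by -0.68 for o-organoid and -1.43 for y-organoid. Stat3 itself differed by -1.13 for o-organoid and 0.06 for y-organoid, and its feedback inhibitor Socs3 by -0.12 and 0.14.

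Most cytokine genes of that list, which also holds Il17a and Il18, were dim. Il6, Osm, Il17a and Il23a were not above background on any array, and Il22 was at -4.48 on o-organoid, -4.46 (not above background) on y-organoid, -4.42 on crypt and -4.40 on intestine, all near the lowest signal that counts as above background. Il18, a cytokine stored in epithelial cells, had the widest differences of the list between organoids and crypt, with signals of -1.16 on o-organoid and -1.43 on y-organoid, against 3.44 on crypt. Its differences were -4.61 and -4.88. Lif, a cytokine of the IL-6 family, was above background on y-organoid alone (-1.46) and at least 8.43-fold higher there than on crypt.

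In the list of Toll-like receptors and Myd88, 1 of 17 genes was lower by 4-fold or more and 1 higher on y-organoid than on crypt (median -0.21), and 1 of 17 was lower on o-organoid (median -0.53). These counts are near the shares over all probes, 3.92% lower and 4.95% higher on y-organoid and 3.93% lower on o-organoid. Myd88 had signals of 0.25 on o-organoid, -0.82 on y-organoid, 0.78 on crypt and 1.10 on intestine. Its differences from crypt were -0.53 for o-organoid and -1.60 for y-organoid. The lower gene was Tlr1, a receptor for bacterial lipoproteins, which was not above background on either organoid array (bounds of -2.97 for o-organoid and -2.17 for y-organoid). Traf6, a signal adaptor below Myd88, was the higher one on y-organoid (2.72).

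The type 2 cytokines that induce Retnlb, Il4 and Il13, and the upstream alarmins Il25 and Tslp were not above background on any array. Of their receptor chains, Il4ra and Il13ra1 were above background on every array, and Il2rg and Il13ra2 on neither organoid array. Il4ra differed from crypt by -1.91 for o-organoid and -1.11 for y-organoid, and Il13ra1 by -1.58 and -1.40. Stat6, the factor that these receptors activate, differed by -0.01 and -0.74. The alarmin Il33 was not above background on the organoid arrays and was at least 12.9-fold lower than crypt on o-organoid and at least 7.40-fold lower on y-organoid. Of 7 genes of this list with a value, 1 was lower by 4-fold or more than crypt on o-organoid (median -0.80), and on y-organoid 1 of 6 was lower and 1, the kinase gene Jak3, higher (median -0.93). Among all probes 3.93% were lower on o-organoid, and 3.92% were lower and 4.95% higher on y-organoid.

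**Figure D4:**
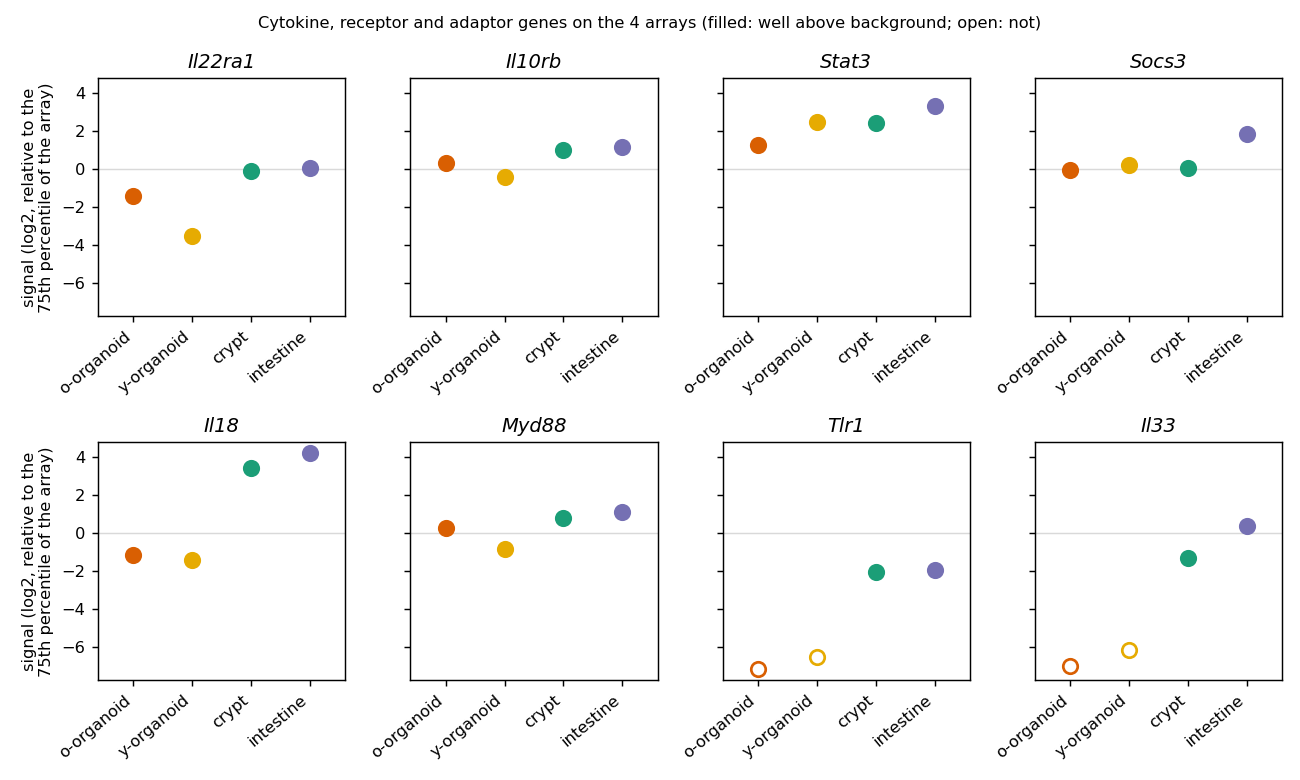
Signal (log2, relative to the 75th percentile of the array) of 8 cytokine, receptor and adaptor genes on o-organoid, y-organoid, crypt and intestine arrays; filled points are well above background and open points are not. Il18 is low on both organoid arrays, Il22ra1 is lowest on y-organoid, and Il33 and Tlr1 are above background on crypt and intestine only.

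Other host defence genes of the epithelium were counted in the same way. Of 14 with a value, 4 were lower by 4-fold or more and 0 higher on y-organoid than on crypt (median -0.65), beside 3.92% of all probes lower. On o-organoid 2 of 14 were lower and 0 higher (median -0.43), beside 3.93% of all probes lower. The 4 were Lypd8, which keeps flagellated bacteria from the colon surface, Wfdc2, Lyz1 and Itln1. The differences were -2.74 for Lypd8, -2.16 for Wfdc2 (a bound), -2.11 for Lyz1 and -2.09 for Itln1, an intelectin that binds microbial sugars. On o-organoid the lower ones were Wfdc2 (a bound of -2.97) and Pigr, which carries IgA across the epithelium (-2.05). Pglyrp1, a peptidoglycan recognition protein, was higher on both organoid arrays than on crypt, by 1.28 for o-organoid and 1.36 for y-organoid. Lyz1, Ang4, Itln1 and Pla2g2a stand in the Paneth list too. Extl3, reported as a receptor for Reg proteins, had signals of 1.47 on o-organoid, 1.98 on y-organoid, 1.16 on crypt and 2.19 on intestine. It stands in a list of resistin genes and C-type lectin relatives. Of 5 with a value, 3 were lower by 4-fold or more and 0 higher on y-organoid than on crypt (median -2.09): Clec2h (-3.51), Clec2d (-2.50) and Itln1. On o-organoid 2 of 6 were lower, Clec2d (-4.31) and Clec2h (-3.37), and 0 higher (median -0.58). The shares of all probes lower are those given above.

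The patterns of the members were compared by the Euclidean distance between their log2 signals over the 4 arrays, each gene centred on its own mean and dim values set at their bound. Reg3a and Reg3g were the closest pair (1.40), followed by Reg4 and Retnlb (1.69) and by Reg1 and Reg3g (1.91). Distances of Retnlb and of Reg2 say little, since each was above background on 1 array and rests on bounds for the other 3. Reg3b and Reg3g, with the most alike promoter windows, were 4.54 apart.

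Among 11624 annotated genes above background on all 4 arrays, those nearest to Reg3g were Slc9a3 (0.16), Batf2 (0.29) and Il18 (0.39). Slc9a3, the sodium-proton exchanger of the enterocyte brush border, had signals of -0.84 on o-organoid and -1.29 on y-organoid, against 3.18 on crypt and 3.89 on intestine. Batf2, a transcription factor of the interferon response, had -1.96 and -2.53, against 2.43 and 3.03. Those nearest to Reg4 were Slx4 (0.06), Ganab (0.08) and Mtmr7 (0.08). For Retnlb the nearest of 1247 genes measured on intestine alone were Id4, Pianp and Ckm, a choice that rests only on their intestine signals between -2.93 and -2.92. With 4 arrays of different tissues these distances describe the arrays and carry no test.

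**Figure D5:**
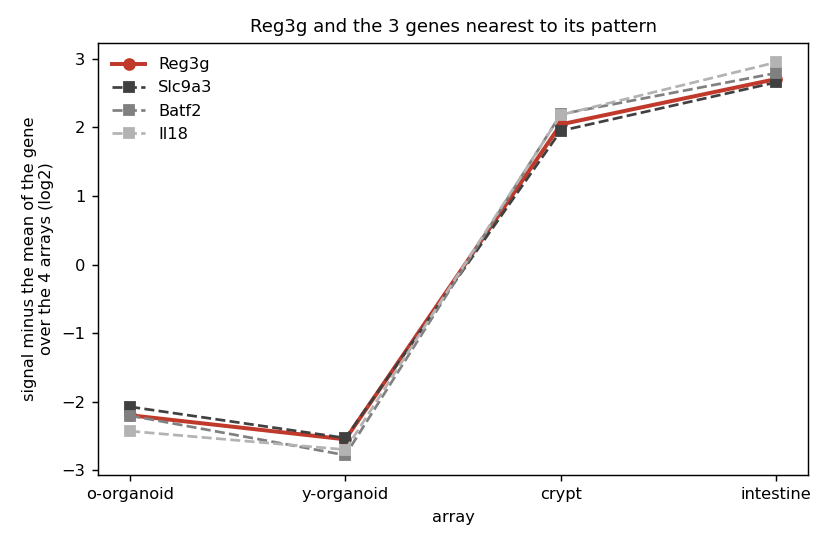
Log2 signal of Reg3g and of the 3 annotated genes nearest to its pattern, each minus its own mean over the 4 arrays, on o-organoid, y-organoid, crypt and intestine arrays. All 4 genes are low on both organoid arrays and high on crypt and intestine.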

How the data were processed

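Total RNA was extracted by the acid guanidinium method and amplified and labelled with Cy3 in a low-input kit, per the labels' protocols. The scanner files hold spot intensity on a linear scale as deposited, processed in version 10.7.3.1 of Agilent Feature Extraction with spatial and multiplicative detrending, and probe coordinates follow mm9, per the file headers. The deposited value table was found to be a ratio: processed intensity over 1 constant per array, with column medians of 1.0, so its scale and direction are settled. Its tool is not stated.

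Control spots (1377 per array) and outlier spots (108 to 165) were left out, and none was saturated. Signals are log2 processed intensities minus the 75th percentile of the array, and spots of a probe were averaged. The 75th percentile was at intensities of 282 to 644. Probes were named through the RefSeq table of GRCm38.p6: 27234 matched an accession, 3576 a symbol and 565 a synonym, and 8054 were left under their deposited name. Genes of lists were read by their brightest probe. Likeness took the 3 nearest genes for Reg3g, Reg4 and Retnlb. From each pathway list up to 4 genes were to be named by size of difference, and the cell type lists were to be given by count, range and median. Genes named beyond that for their role (Il22, Il6, Osm, Il17a, Il23a, Il10rb, Stat3, Socs3, Myd88, Il4, Il13, Il25, Tslp, Il4ra, Il13ra1, Il2rg, Il13ra2, Stat6, Pglyrp1, Pigr, Lct, Mptx1, Lyz1, the pancreatic genes, Zg16 and Sytl2) and the chromosome Y genes and Xist were chosen after their values were seen. Extl3, Itln1, Retnla and Clec2h were likewise named beyond the rule on size, after their values were seen. Members, lists and rules were chosen with earlier results of these data known. Whether probes of paralogous Reg genes share sequence with each other's transcripts was not tested. Calls were checked on simulated data. Alternatives were normexp (limma 3.58.1, offset 50), no background correction, quantile normalization, the deposited table, the percentile over probes above background on all arrays, no filter on dim probes, and the median of a gene's probes, which changes nothing with 1 probe per member. No slide or batch can be tested with 1 array per group. Python 3.11.15 was used for the rest.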

Additional observations from a re-analysis of the deposited data

How the results depend on the processing

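Of 56 counts of members past 4-fold recomputed under the 7 alternatives, 1 moved by more than 1.5 times: 2 members were at least 4-fold higher on the o-organoid than on the y-organoid array with the deposited value table, against 0. Of 182 single differences recomputed, 167 kept their sign and their side of 4-fold, 11 changed side and 4 turned sign while within 4-fold. Every count and difference under the median of a gene's probes repeats the main value by construction. With no filter on dim probes, so does every difference between arrays that were both above background. These repeats are among the counts and differences given as unchanged. Reg3d accounts for 7 of the 11. Minus crypt it came within 4-fold for o-organoid under the 5 settings that could change it (-1.59 with normexp, the smallest). For y-organoid it did so without background correction (-1.52) and with normexp (-1.21). Reg1 passed 4-fold between crypt and intestine with the percentile over probes above background on all arrays (-2.10), and Retnlb did with no filter on dim probes (-2.30). Signs turned with the deposited table for Reg3g between crypt and intestine and for Reg4 between o-organoid and y-organoid (0.28), and for Reg3d between the organoids with normexp (-0.38) and without background correction (-0.24). The differences of Reg3a, Reg3b and Reg3g from crypt stayed past 4-fold under all 7 alternatives, of which only 5 could change them. They lay between -8.03 and -4.05 for o-organoid and between -9.78 and -4.39 for y-organoid. The deposited scaling moved the median of all probes to 0.85 between crypt and intestine, -0.34 between y-organoid and crypt and 0.43 between o-organoid and y-organoid. No paired analysis was possible because each group has 1 array. Low signal limits Retnlb and Reg2, which have bounds or no difference outside the intestine array. Their bounds between crypt and intestine shrank with normexp, to -0.77 for Retnlb and -9.43 for Reg2.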
